A study of Mus musculus with 24 samples.

Results

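Lactate dehydrogenase and glycolytic isozyme genes were followed through early male meiosis in the mouse testis. The set was 10 genes of the 52231 gene rows in the deposited tables, taken by exact symbol: the lactate dehydrogenase genes Ldha, Ldhb, Ldhc and Ldhal6b, the hexokinases Hk1 and Hk2, the aldolase Aldoa, the sperm glyceraldehyde-3-phosphate dehydrogenase Gapdhs, and the phosphoglycerate mutases Pgam1 and Pgam2. It was chosen with earlier results of these data known, so its counts and medians beside those of all genes are descriptions. All 10 were found in both tables, and all 10 passed the level filter of at least 1 FPKM in at least 2 libraries.

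Glycolysis turns glucose into pyruvate, and lactate dehydrogenase converts pyruvate and lactate into each other. Many steps of the pathway can be carried out by several isozymes, encoded by separate genes with their own tissue patterns. Spermatocytes are known to rely on lactate that Sertoli cells release, and male germ cells replace several somatic isozymes with germ-cell forms, some of them autosomal copies of X-linked genes.

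The study compared germ cell stages by total RNA and by RNA newly made in the living animal. All animals were wild-type NMRI mice whose spermatogenesis had been synchronised with a chemical inhibitor of retinoic acid synthesis and then retinoic acid. Each received 2 mg of 5-ethynyl uridine (EU), a label built into new RNA, at 24 days of age and was killed 3 hours later, and testis cells were then sorted by ploidy. Each assay had 12 libraries: 3 of spermatogonia (the mitotic germ cells) from 2 animals, 1 of preleptotene spermatocytes, 4 of leptotene spermatocytes (at the start of meiotic prophase) from 3 animals and 4 of pachytene spermatocytes (in mid prophase) from 2 animals. Total RNA came from animals IND1 to IND4 and nascent (EU-labelled) RNA from animals IND5 to IND8, so an animal gave several libraries and often more than 1 stage.

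Values are FPKM, fragments scaled by transcript length and library size, so levels of different genes can be set side by side per length. Depth implied by the lowest FPKM steps was 7070000 to 15800000 reads in total RNA and 5070000 to 10100000 reads in nascent RNA. Spike-in rows took 2.49% to 8.19% of the summed FPKM of total RNA libraries and 5.01% to 76.5% of that of nascent libraries, so nascent FPKM also move with the spike-in share. Leptotene library 2 stood apart in both assays: over 19202 genes its Spearman correlation with pachytene libraries was 0.874 to 0.904 in total RNA, against 0.528 to 0.569 with other leptotene libraries. Its 10 pachytene markers summed to 2180 FPKM in total RNA, against 97.5 to 137 in the other 3 leptotene libraries and 2645 to 2888 in pachytene. Changes of the 10 genes called to or from leptotene are therefore given with and without it. Leptotene library 1 came from the same animal, so without library 1 that animal is represented by library 2 alone. Leptotene library 3 was the leptotene library most like spermatogonia. In nascent RNA it correlated at 0.792 to 0.875 with spermatogonia libraries and at 0.653 to 0.817 with other leptotene libraries. The ranges in total RNA were 0.739 to 0.853 and 0.528 to 0.846. Its 10 spermatogonia markers summed to 171 FPKM in total RNA, beside 35.6 to 132 in other leptotene libraries and 176 to 204 in spermatogonia. Somatic markers were high in the spermatogonia libraries. Summed over each list in total RNA, 10 Sertoli markers gave 127 to 183 FPKM there, 8.92 to 32.3 in leptotene and 2.43 to 4.97 in pachytene, and 8 peritubular and vascular markers gave 187 to 458, 2.12 to 15.9 and 0.6 to 1.37. The 7 Leydig markers gave 185 to 460, 2 to 21.2 and 4.58 to 7.89, and the blood and macrophage markers 36.8 to 47.5, 1.9 to 6.62 and 2.39 to 3.55. In bulk samples such as these, fewer cells of a type and less RNA per cell cannot be told apart.

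Promoter sequences are shown for Ldha and Ldhc, which lie next to each other yet differed in level, for Ldhal6b and Pgam2, which were at 275 FPKM or more in every pachytene library of total RNA, and for Hk2, which fell. The windows are RefSeq promoters on GRCm38.p6, from 250 bases before to 50 after a gene start, printed 5′ to 3′ on the gene's strand. Ldha and Ldhc had 2 windows each, of which 1 is shown. The window shown for Ldha lies inside the gene's annotated span (46841475 to 46855627). They are chr7:46845554-46845853 (+) for Ldha, chr7:46861013-46861312 (+) for Ldhc, chr17:5418718-5419017 (-) for Ldhal6b, chr11:5803747-5804046 (-) for Pgam2 and chr6:82774405-82774704 (-) for Hk2. Capitals mark 4 letter patterns searched on both strands: ACGTG (core of the hypoxia-inducible factor site), TGACG (part of a cyclic AMP response element), GGGCGG (GC box) and AACNG (core of the MYB site). ACGTG and TGACG can share bases, and a palindrome such as cACGTg counts on both strands.
Ldha: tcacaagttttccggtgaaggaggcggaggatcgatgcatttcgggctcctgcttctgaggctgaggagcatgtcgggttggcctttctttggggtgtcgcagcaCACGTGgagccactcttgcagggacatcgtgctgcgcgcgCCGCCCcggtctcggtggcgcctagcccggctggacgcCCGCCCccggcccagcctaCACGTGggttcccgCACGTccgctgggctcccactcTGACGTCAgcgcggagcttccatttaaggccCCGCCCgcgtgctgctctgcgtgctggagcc
Ldhc: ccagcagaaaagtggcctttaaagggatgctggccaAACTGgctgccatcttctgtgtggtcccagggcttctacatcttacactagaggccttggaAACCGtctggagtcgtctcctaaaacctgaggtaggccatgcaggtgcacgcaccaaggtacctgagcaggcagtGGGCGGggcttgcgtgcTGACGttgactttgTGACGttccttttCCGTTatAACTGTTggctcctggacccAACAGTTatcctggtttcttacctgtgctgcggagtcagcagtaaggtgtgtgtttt
Ldhal6b: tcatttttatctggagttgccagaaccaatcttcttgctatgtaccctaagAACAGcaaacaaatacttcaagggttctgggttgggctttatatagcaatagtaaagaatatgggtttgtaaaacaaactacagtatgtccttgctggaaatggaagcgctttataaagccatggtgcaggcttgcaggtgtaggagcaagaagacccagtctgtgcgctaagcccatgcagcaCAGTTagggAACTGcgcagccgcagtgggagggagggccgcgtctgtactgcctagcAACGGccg
Pgam2: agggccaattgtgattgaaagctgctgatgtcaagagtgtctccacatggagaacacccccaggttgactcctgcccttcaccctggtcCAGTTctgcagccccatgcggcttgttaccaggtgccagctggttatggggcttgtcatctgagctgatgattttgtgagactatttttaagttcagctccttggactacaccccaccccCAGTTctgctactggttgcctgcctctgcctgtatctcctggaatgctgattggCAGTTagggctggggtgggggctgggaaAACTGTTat
Hk2: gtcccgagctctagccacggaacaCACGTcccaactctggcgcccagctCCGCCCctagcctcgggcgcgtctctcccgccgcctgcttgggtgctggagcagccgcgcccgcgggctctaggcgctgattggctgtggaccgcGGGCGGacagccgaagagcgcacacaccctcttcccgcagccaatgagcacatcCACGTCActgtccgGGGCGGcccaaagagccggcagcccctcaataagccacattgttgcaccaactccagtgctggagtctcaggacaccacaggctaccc

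Among 32851 promoter windows of that length, ACGTG was found in 19.6%, TGACG in 20.8%, GGGCGG in 35.7% and AACNG in 80.3%. The Ldha window held ACGTG 5 times, TGACG 2 times, GGGCGG 3 times and no AACNG. In the Ldhc window AACNG occurred 7 times, TGACG 2 times, GGGCGG 1 time and ACGTG 0 times. The windows of Ldhal6b and Pgam2 held AACNG 4 and 5 times and none of the other 3 patterns. Hk2 had ACGTG 2 times, TGACG 1 time, GGGCGG 3 times and no AACNG. GC content was 67.3% for both Ldha and Hk2, 53.3% for Ldhc and Pgam2 and 48.3% for Ldhal6b, beside a median of 52.7% over all windows. These matches describe the letters and are not binding sites.

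Between stages some of the 10 genes rose, some fell and others were not called, and the shares of all genes are given below. In total RNA, pachytene cells held more Ldhc, Ldhal6b and Pgam2 and less Ldhb, Hk2 and Pgam1 than either earlier stage. In the reported fit Ldha was not called in total RNA, and Gapdhs was not called in any comparison. With the animal as a replicate block the falls of Ldhb, Hk2 and Pgam1 from leptotene to pachytene were not called (adjusted p = 0.0878, 0.0972 and 0.175), nor was that of Pgam1 from spermatogonia (0.083). With that block a leptotene to pachytene difference rests on the only animal that gave both stages, IND4 in total RNA and IND8 in nascent RNA. The leptotene library of both was library 3, the one most like spermatogonia. No animal gave both spermatogonia and pachytene, so that blocked difference runs through leptotene and rests on the same pachytene animals. Changes are log2 differences of FPKM + 1, which understate changes of low genes, tested with limma over animal means and called at an adjusted p under 0.05 over all genes tested.

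From spermatogonia to leptotene, 0 of the 10 genes rose and 2 fell (Ldhb and Hk2) in total RNA, where 0.286% of all 19202 genes tested rose and 9.58% fell. At an unadjusted limma p under 0.05, 0 of the 10 were higher and 3 lower, beside 4195 of the 19202 genes in either direction. From leptotene to pachytene 5 rose (Ldhc, Ldhal6b, Hk1, Aldoa and Pgam2) and 3 fell (Ldhb, Hk2 and Pgam1), beside 22.4% and 17.9% of all genes. Without leptotene library 2 the counts were 5 and 3, and without leptotene library 1 they were 0 and 0, while calls over all genes dropped from 7742 to 9. Pachytene against spermatogonia gave 3 rises and 3 falls, beside 23.1% and 29.8%. The median change of the 10 genes from leptotene to pachytene was 0.78, and that of all genes tested was -0.07. Among all genes called in that comparison 55.5% were rises, and 77.9% were with spike-in scaling; from spermatogonia to pachytene the figures were 43.7% and 55.6%.

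Nascent RNA gave 0 rises and 2 falls (Ldhb and Hk2) from spermatogonia to leptotene, beside 0.788% and 9.8% of the 16375 genes tested. At an unadjusted limma p under 0.05, 0 of the 10 were higher there and 5 lower, beside 3986 of the 16375 genes in either direction. From leptotene to pachytene 5 rose (Ldha, Ldhc, Ldhal6b, Aldoa and Pgam2) and 1 fell (Hk2), beside 15.7% and 15.8%. Without leptotene library 2 there were 6 rises and 2 falls, and without leptotene library 1 there were 0 and 0. Against spermatogonia, 4 rose in pachytene (Ldha, Ldhc, Ldhal6b and Pgam2) and 3 fell (Ldhb, Hk2 and Pgam1), beside 15.6% and 27.9%. The median of the 10 genes from leptotene to pachytene was 1.39, with all genes at -0.27. Of the calls over all genes there, 49.8% were rises, and in the 5S-corrected table, where the authors had multiplied each of 9 libraries by 1 constant, 94.2% were. The share was 35.8% between spermatogonia and pachytene, and 48.5% after quantile normalization. Between spermatogonia and leptotene it was 7.44%, and 37% in the uncorrected values of the 9 libraries of the 5S-corrected table.

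**Figure D1:**
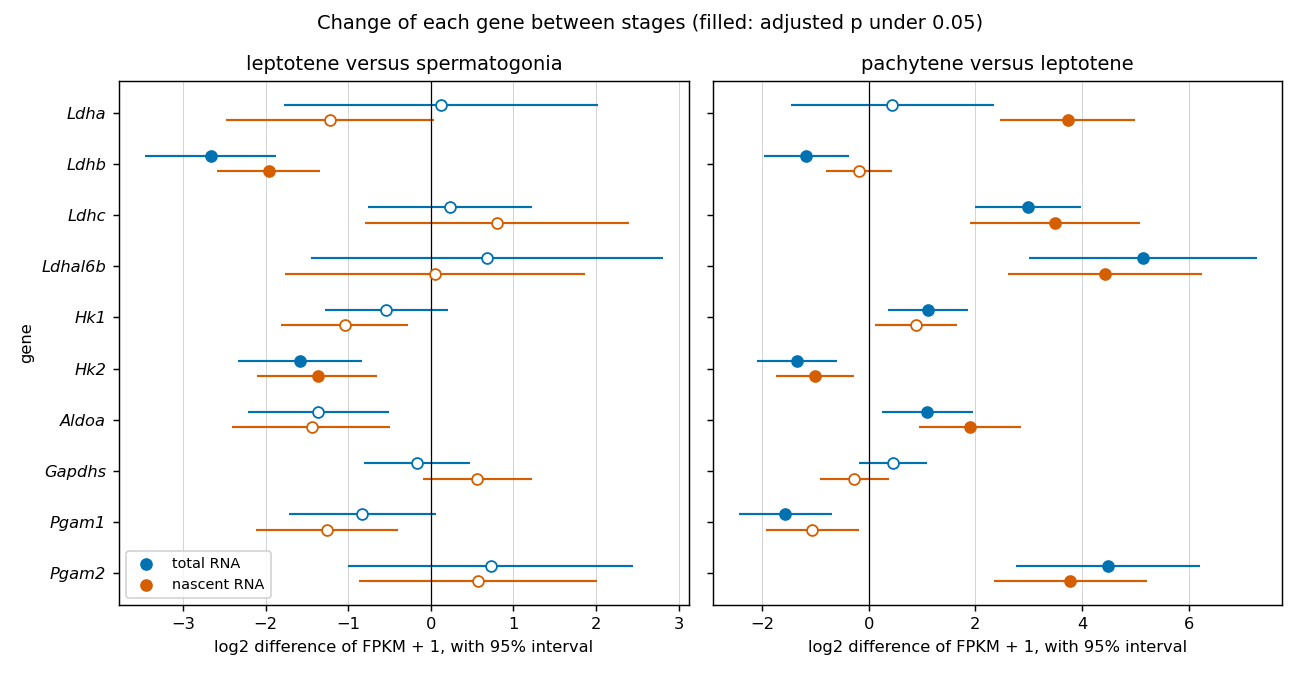
Log2 differences of FPKM + 1 of the 10 genes between stages, with 95% intervals, for total RNA and nascent RNA; filled points passed an adjusted p under 0.05. From leptotene to pachytene Ldhal6b (5.14 in total RNA) and Pgam2 (4.49) lay farthest to the right, and Ldha was called in nascent RNA (3.74) and not in total RNA (0.44).

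Ldhc encodes the germ-cell lactate dehydrogenase subunit. It lies on chromosome 7 at 46861203 to 46878142 (plus strand, mm10 coordinates from GENCODE M21). In total RNA it was at 16.1, 7.4 and 22.7 FPKM in spermatogonia libraries 1 to 3, at 15.6 in preleptotene, at 6.86, 93.3, 12.3 and 20.3 in leptotene libraries 1 to 4, and at 37, 326, 562 and 84 in pachytene libraries 1 to 4. All 4 pachytene libraries were above every spermatogonia library, and leptotene library 2 lay inside the pachytene range. Animal means were 27.5 ± 19.9 FPKM in leptotene (SD, n = 3 animals) and 252 ± 66.8 in pachytene (n = 2). Ldhc rose by 2.98 ± 0.43 (log2 difference ± SE) from leptotene to pachytene (limma adjusted p = 0.00318). Without leptotene library 2 the rise was 3.58 ± 0.47 (adjusted p = 0.000654), and without leptotene library 1 it was 2.39 and not called (adjusted p = 0.188). Ldhc rose from spermatogonia to pachytene by 3.21 ± 0.48 (adjusted p = 0.00123), and from spermatogonia to leptotene it was not called (0.23 ± 0.43, adjusted p = 0.802). Its spermatogonia values rest on 143 to 470 implied reads per library.

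Nascent Ldhc was low before pachytene. It was at 0.72, 0 and 0.879 FPKM in spermatogonia, 0.357 in preleptotene, 0.52, 59.1, 0.459 and 0.478 in leptotene and 14.9, 17.8, 83.5 and 34.9 in pachytene. Leptotene library 2 was higher than 3 of the 4 pachytene libraries, while the other 3 leptotene libraries stayed under 1 FPKM. Nascent Ldhc rose by 3.49 ± 0.72 from leptotene to pachytene (limma adjusted p = 0.00497), by 4.38 ± 0.31 without leptotene library 2, and was not called without leptotene library 1 (2.61, adjusted p = 0.233) or with no filter (3.49, adjusted p = 0.0545). In the 5S-corrected table, a signal on another scale that lacks leptotene libraries 2 and 3 and pachytene library 3, Ldhc was at 0.306 and 0.211 in leptotene and 26.2, 90.5 and 79.4 in pachytene. There it rose by 4.53 ± 0.69 (adjusted p = 2.01e-05).

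Ldha encodes the muscle-type subunit and lies 5575 bases before Ldhc on the same strand (chromosome 7, 46841475 to 46855627). Total RNA gave 10.1, 2.64 and 14.3 FPKM in spermatogonia, 4.45 in preleptotene, 3.99, 184, 4.57 and 6.25 in leptotene and 24.1, 21.5, 0.956 and 39.1 in pachytene. The highest of all libraries was leptotene library 2 and the lowest was pachytene library 3, so the stages overlapped. Total Ldha was not called from spermatogonia to leptotene (0.12 ± 0.84, limma adjusted p = 0.952), from leptotene to pachytene (0.44 ± 0.84, adjusted p = 0.7) or from spermatogonia to pachytene (0.56 ± 0.92, adjusted p = 0.636). Without leptotene library 2 the leptotene to pachytene difference was 1.31 ± 0.64 (adjusted p = 0.124). With the animal as a replicate block Ldha was called in total RNA, with a rise of 2.43 ± 0.71 from leptotene to pachytene (adjusted p = 0.024) and of 3.02 ± 0.87 from spermatogonia to pachytene (adjusted p = 0.0167). Only animal IND4 gave both leptotene and pachytene in total RNA. The blocked leptotene to pachytene difference therefore comes from IND4 alone, without leptotene library 2 or pachytene library 3, and is not replicated over animals. The blocked spermatogonia to pachytene difference runs through leptotene and also has IND4 as its only pachytene animal. The 95% interval of the unblocked leptotene to pachytene difference, -1.46 to 2.34, does not show that Ldha RNA stayed level.

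Nascent Ldha was called between stages. Its values were 2.84, 4.32 and 3.6 FPKM in spermatogonia, 0.628 in preleptotene, 0.226, 18.3, 0.237 and 0.246 in leptotene and 37.7, 10.4, 18.7 and 52.8 in pachytene. The 3 leptotene libraries other than library 2 were below every spermatogonia library, and all 4 pachytene libraries were above every spermatogonia library. It rose from leptotene to pachytene by 3.74 ± 0.57 (limma adjusted p = 0.00132), by 4.40 ± 0.27 without leptotene library 2 (adjusted p = 6.49e-05), and was not called without leptotene library 1 (3.08, adjusted p = 0.0902). It rose by 2.52 ± 0.63 from spermatogonia to pachytene (adjusted p = 0.00787), a call that ended without spermatogonia library 3 (2.53, adjusted p = 0.074) or without leptotene library 1 (2.52, adjusted p = 0.117). The spermatogonia to leptotene difference of -1.22 ± 0.57 was not called (adjusted p = 0.221), and without leptotene library 2 it was a fall of -1.88 ± 0.27 (adjusted p = 0.00333).

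Ldha and Ldhc differed widely between pachytene libraries of the same animal. Libraries 1 and 3 of animal IND2 had Ldha at 24.1 and 0.956 FPKM and Ldhc at 37 and 562, and libraries 2 and 4 of animal IND4 had Ldha at 21.5 and 39.1 and Ldhc at 326 and 84. The SD of log2(FPKM + 1) over the 4 pachytene total RNA libraries was 1.96 for Ldha and 1.78 for Ldhc. Among 5975 genes with a mean of at least 5 FPKM there, 1.77% and 2.74% had a larger SD, and the median SD was 0.26. Pgam2 and Ldhal6b, with SDs of 0.19 and 0.18, were even across the same libraries. Pachytene library 3, with the lowest Ldha and the highest Ldhc of its stage, had 15800000 implied reads, the most of any total RNA library. Its spermatogonia markers summed to 20.4 FPKM, against 2.13 to 4.62 in the other pachytene libraries. The cause of the spread was not tested.

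Ldhal6b, a lactate dehydrogenase A-like gene, lies on chromosome 17 at 5417323 to 5418767 (minus strand), and its exons cover the whole 1445-base span. In total RNA it was at 2.26, 5.82 and 5.1 FPKM in spermatogonia, listed at 0 in preleptotene, at 9.8, 174, 3.31 and 2.42 in leptotene and at 361, 277, 304 and 275 in pachytene. Every pachytene library was above every other library, leptotene library 2 included. Ldhal6b rose by 5.14 ± 0.94 from leptotene to pachytene (limma adjusted p = 0.00436), by 5.81 ± 0.48 without leptotene library 2 and by 5.82 ± 1.03 from spermatogonia to pachytene (adjusted p = 0.00204). Without leptotene library 1 the leptotene to pachytene difference was 4.47 and not called (adjusted p = 0.188). Nascent Ldhal6b was at 1.3, 1.96 and 2.16 FPKM in spermatogonia, 0.651 in preleptotene, 1.32, 63.3, 0 and 1.17 in leptotene and 114, 81, 28.2 and 60.3 in pachytene. It rose by 4.43 ± 0.82 from leptotene to pachytene (adjusted p = 0.00291), by 5.22 ± 0.42 without leptotene library 2, and was not called without leptotene library 1 (3.63, adjusted p = 0.125). Ldhal6b lies inside Tmem242, on the same strand, and opposite the antisense gene Gm29050, so its reads cannot be told apart with certainty. Tmem242 was at 5.87 to 7.52 FPKM in spermatogonia and 43.1 to 49.3 in pachytene total RNA, and Gm29050 at 0.112 to 6.55 and 61 to 130.

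Ldhb encodes the heart-type subunit (chromosome 6, 142490249 to 142507957, minus strand). Total RNA gave 25.4, 7.28 and 18.9 FPKM in spermatogonia, 4.74 in preleptotene, 1.28, 0.539, 2.59 and 1.93 in leptotene and 0, 0.439, 0.353 and 0.0786 in pachytene. The 3 stages that had several libraries did not overlap, and the pachytene values rest on 0 to 8.76 implied reads per library. Ldhb fell by 2.66 ± 0.35 from spermatogonia to leptotene (limma adjusted p = 0.00366), by 1.17 ± 0.35 from leptotene to pachytene (adjusted p = 0.0277) and by 3.83 ± 0.38 over both steps (adjusted p = 0.000833). The first 2 of these were falls of -2.57 ± 0.27 (adjusted p = 0.00343) and -1.26 ± 0.27 (adjusted p = 0.00617) without leptotene library 2. The leptotene to pachytene fall was not called with the animal as a replicate block (-1.53 ± 0.62, adjusted p = 0.0878), after quantile normalization (-1.11, adjusted p = 0.0597), with spike-in scaling (-0.89, adjusted p = 0.119), with a pseudocount of 5 (-0.38, adjusted p = 0.129) or with no filter (adjusted p = 0.058). It also ended without spermatogonia library 1 (adjusted p = 0.0646) or leptotene library 1, 3 or 4 (0.198, 0.0579 and 0.0767), and was called in 11 of 20 alternatives. Nascent Ldhb was at 5.16, 3.58 and 3.31 FPKM in spermatogonia, 0.598 in preleptotene, 0 to 0.503 in leptotene and 0 to 0.175 in pachytene. It fell by 1.96 ± 0.28 from spermatogonia to leptotene (adjusted p = 0.00138, and 0.0019 without leptotene library 2) and by 2.15 ± 0.31 from spermatogonia to pachytene (adjusted p = 0.000595). Sertoli, Leydig and peritubular markers fell beside it: 8 of 10, 6 of 7 and 6 of 7 tested were called lower from spermatogonia to leptotene in total RNA, beside 9.58% of all genes. In nascent RNA 7 of 7, 5 of 6 and 7 of 7 tested were, beside 9.8% of all genes. Of the 10 Sertoli markers, only Rhox5 and Fshr were at 0 in every pachytene library. The part of the somatic cells in the fall of Ldhb was not tested.

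**Figure D2:**
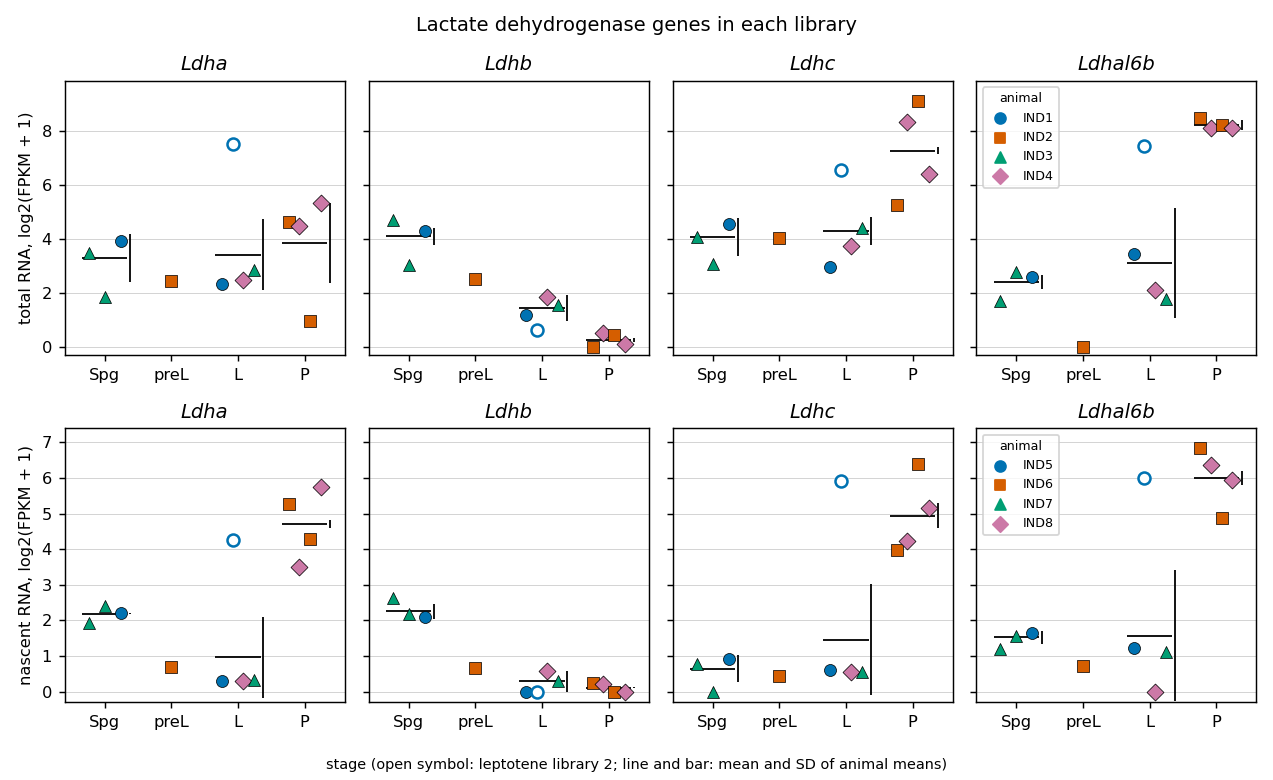
Log2(FPKM + 1) of the 4 lactate dehydrogenase genes in each library, by stage (Spg, spermatogonia; preL, preleptotene; L, leptotene; P, pachytene), total RNA above and nascent RNA below; symbols mark animals, open symbols leptotene library 2, and lines and bars the mean and SD of animal means. Ldhb went down from 7.28 to 25.4 FPKM in spermatogonia to at most 0.439 in pachytene total RNA, and Ldhal6b reached 275 FPKM or more in every pachytene library.

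Within a library, the makeup of the lactate dehydrogenase RNA changed between stages, with shares taken of the summed FPKM of the 4 genes. In total RNA, Ldhb held 30.9% to 47.2% in spermatogonia, 19.1% in preleptotene, 0.119% to 11.4% in leptotene and 0% to 0.0702% in pachytene. Ldhc and Ldhal6b together took the largest part of every pachytene library, Ldhc with 8.77% to 64.8% and Ldhal6b with 35% to 85.5%. The sum of the 4 genes was 23.1 to 61 FPKM in spermatogonia, 24.8 in preleptotene and 399 to 867 in pachytene. In leptotene it was 21.9 at the lowest and 452 in library 2. The share of Ldha was 11.4% to 23.5% in spermatogonia and 0.11% to 9.81% in pachytene total RNA, and 28.4% to 43.8% and 9.49% to 35.7% in nascent RNA.

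**Figure D3:**
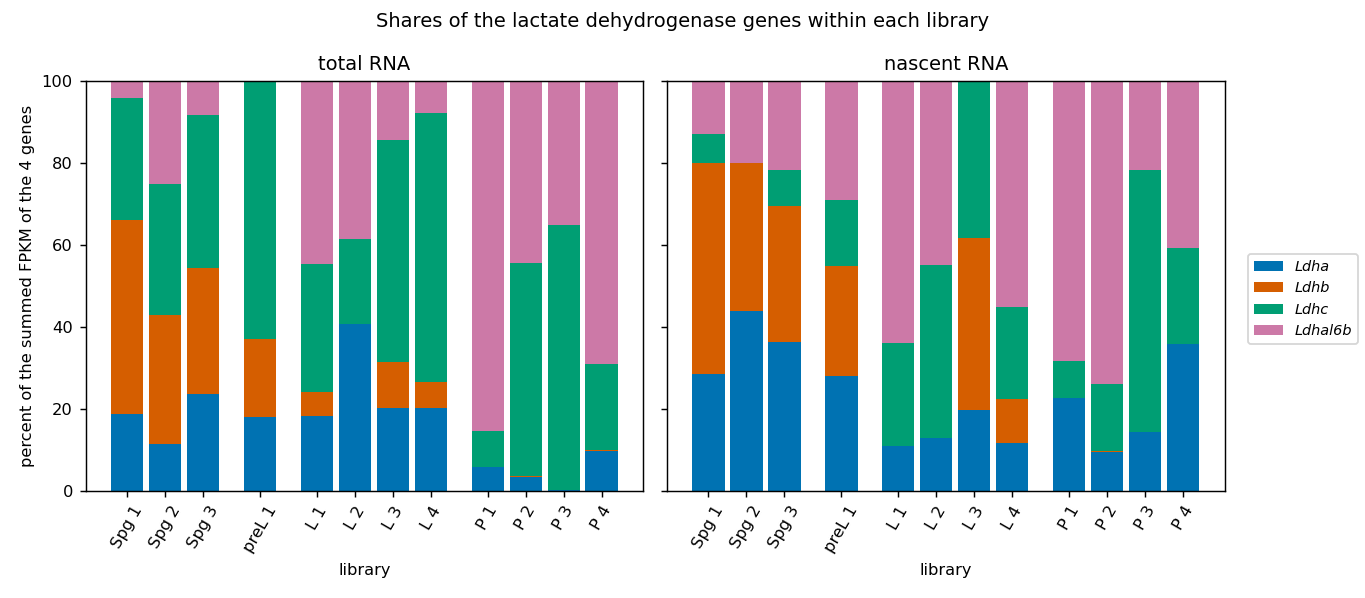
Percent of the summed FPKM of Ldha, Ldhb, Ldhc and Ldhal6b held by each gene, in every library of total RNA (left) and nascent RNA (right). Ldhb takes 30.9% to 47.2% of spermatogonia total RNA libraries and cannot be seen in most pachytene bars, while the split between Ldhc and Ldhal6b varies among pachytene libraries.

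Ratios between isozymes were taken within a library as the log2 ratio of FPKM + 1, and where 1 of the genes is near 0, as Ldhb was in pachytene, they still move with the library's scaling. For Ldhc over Ldhb in total RNA, this ratio was -0.02 in spermatogonia (mean of 2 animals), 2.87 in leptotene (3 animals) and 7.02 in pachytene (2 animals). For Ldhc over Ldha it was 0.77, 0.88 and 3.43, and the pachytene libraries spread from 0.60 to 8.17. Over 24 such comparisons in total RNA the designs of 2 against 2 and 2 against 3 animals cannot go below an exact two-sided permutation p of 0.333 and 0.2, so no ratio could pass 0.05. The leptotene to pachytene difference of Ldhc over Ldhb, 4.15, reached the smallest p of 0.2 (0.4 after adjustment), as did that of Ldhc over Ldha, 2.55.

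Hexokinases phosphorylate glucose at the entry of glycolysis. Hk2, the insulin-responsive form of muscle and fat (chromosome 6, 82725025 to 82774454, minus strand), was at 9.96, 11.2 and 6.02 FPKM in spermatogonia, 4.06 in preleptotene, 2.92, 0.765, 1.78 and 2.75 in leptotene and 0.0848, 0.119, 0.58 and 0.0355 in pachytene total RNA. Each stage lay below the one before it without overlap. Hk2 fell by 1.58 ± 0.33 from spermatogonia to leptotene (limma adjusted p = 0.0174), by 1.35 ± 0.33 from leptotene to pachytene (adjusted p = 0.0129) and by 2.92 ± 0.36 over both (adjusted p = 0.000939). The first 2 were falls of -1.39 ± 0.29 (adjusted p = 0.0247) and -1.54 ± 0.29 (adjusted p = 0.00397) without leptotene library 2. The leptotene to pachytene fall was not called with the animal as a replicate block (-1.37 ± 0.57, adjusted p = 0.0972) or with a pseudocount of 5 (-0.45, adjusted p = 0.0814), and the fall to leptotene was not called with a pseudocount of 0.1 (-1.98, adjusted p = 0.0582). Without leptotene library 1 neither the first fall (-1.77, adjusted p = 0.0579) nor the second (-1.15, adjusted p = 0.192) was. Nascent Hk2 went from 3.65 to 5.91 FPKM in spermatogonia, through 1.89 in preleptotene and 0.56 to 1.49 in leptotene, to 0 to 0.131 in pachytene. It fell by 1.37 ± 0.33, by 1.0 ± 0.33 and by 2.37 ± 0.36 over the same comparisons (adjusted p = 0.0214, 0.0401 and 0.000697). Without leptotene library 2 the first 2 of these were falls of -1.27 ± 0.27 (adjusted p = 0.0216) and -1.11 ± 0.27 (adjusted p = 0.0144). Both missed the threshold after quantile normalization (-1.18, adjusted p = 0.0705, and -0.85, adjusted p = 0.0801), and the fall to leptotene missed it with a pseudocount of 0.1 (adjusted p = 0.0845). The fall to pachytene ended without leptotene library 1 or 4 or pachytene library 1 or 2 (adjusted p = 0.163, 0.103, 0.0668 and 0.0516), with the replicate block (-0.98, adjusted p = 0.393), with a pseudocount of 5 (adjusted p = 0.163), with no filter (adjusted p = 0.0593) and in the 5S-corrected table (-0.35 ± 0.58, adjusted p = 0.719). Hk2 fell with the somatic markers described above, whose part in its fall was not tested.

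Hk1, the widely used form that also has testis transcripts (chromosome 10, 62268855 to 62379908, minus strand), gave 4.87, 1.67 and 2.66 FPKM in spermatogonia, 1.31 in preleptotene, 1.16, 4.8, 1.22 and 1.31 in leptotene and 3.99, 5.5, 7.94 and 2.63 in pachytene total RNA. The 3 leptotene libraries other than library 2 were below every spermatogonia and every pachytene library, and spermatogonia overlapped pachytene. Hk1 rose by 1.12 ± 0.33 from leptotene to pachytene (limma adjusted p = 0.0254), and by 1.35 ± 0.22 without leptotene library 2 (adjusted p = 0.00181). The call ended with the replicate block (1.13 ± 0.60, adjusted p = 0.189), with single libraries (1.01, adjusted p = 0.0574) and without spermatogonia library 3 (adjusted p = 0.0505), leptotene library 1, 3 or 4 (0.279, 0.0537 and 0.0747) or pachytene library 2 (0.0784). In nascent RNA Hk1 was at 1.62 to 3.33 FPKM in spermatogonia, 0.304 to 1.34 in leptotene and 1.32 to 2.66 in pachytene, and the leptotene to pachytene difference was not called (0.88 ± 0.35, adjusted p = 0.0741). Without leptotene library 2 it was called (1.02 ± 0.30, adjusted p = 0.0284), as was a fall from spermatogonia to leptotene (-1.19 ± 0.30, adjusted p = 0.0423). Of the 2 hexokinases summed, Hk1 made up 12.9% to 32.8% in spermatogonia and 93.2% to 98.7% in pachytene total RNA. Values are per gene, so testis transcripts of Hk1 were not analysed apart here.

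Aldoa, the muscle-type aldolase, splits fructose bisphosphate. Its row stands for a symbol that GENCODE M21 gives to 2 neighbouring genes on chromosome 7 (126795234 to 126800751 and 126800790 to 126809108, minus strand), and on the other strand Fam57b overlaps both and Gm44856 lies inside the span, so its reads cannot be told apart with certainty. Total RNA was 14.1, 19.4 and 8.81 FPKM in spermatogonia, 4.16 in preleptotene, 3.59, 8.97, 3.9 and 3.04 in leptotene and 10.7, 8.49, 10 and 10.8 in pachytene. Leptotene was the lowest stage apart from library 2. Gm44856 was at 0.251 to 0.361 FPKM in spermatogonia, 0 to 4.64 in leptotene and 6.18 to 8.39 in pachytene total RNA, and Fam57b at 0.251 to 0.633 in spermatogonia and 0 in pachytene. The fall from spermatogonia to leptotene missed the threshold (-1.36 ± 0.38, limma adjusted p = 0.0565), and passed without leptotene library 2 (-1.54 ± 0.29, adjusted p = 0.0155). Aldoa rose from leptotene to pachytene by 1.10 ± 0.38 (adjusted p = 0.0448), and by 1.28 ± 0.29 without leptotene library 2 (adjusted p = 0.00801). This rise was called in 10 of 20 alternatives. It was not called with the replicate block (1.11 ± 0.73, adjusted p = 0.291), after quantile normalization (0.80, adjusted p = 0.139), with a pseudocount of 5 (0.70, adjusted p = 0.0603), with no filter (adjusted p = 0.0781) or without any 1 of spermatogonia library 1, leptotene library 1, 3 or 4, or pachytene library 1 or 4 (adjusted p = 0.0552 to 0.278). Nascent Aldoa was at 4.31, 4.49 and 4.08 FPKM in spermatogonia, 0.977 in preleptotene, 0.79, 3.23, 0.524 and 0.705 in leptotene and 6.59, 6.73, 2.38 and 12.3 in pachytene. It rose by 1.90 ± 0.43 from leptotene to pachytene (adjusted p = 0.00797), by 2.10 ± 0.35 without leptotene library 2 (adjusted p = 0.00255), and was not called without leptotene library 1 (1.69, adjusted p = 0.0866). Its spermatogonia to leptotene difference of -1.44 ± 0.43 was not called (limma adjusted p = 0.0599). Without leptotene library 2 that difference was a fall of -1.65 (adjusted p = 0.0203). Aldoart1, a sperm aldolase copied from Aldoa, was at 0 to 0.154 FPKM in every total RNA library and listed at 0 in every nascent one.

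Gapdhs encodes the sperm form of glyceraldehyde-3-phosphate dehydrogenase, known for its use in spermatids and sperm. It was at 1.28, 1.16 and 1.02 FPKM in spermatogonia, 0.959 in preleptotene, 1.11, 1.28, 0.375 and 1.23 in leptotene and 1.76, 1.76, 1.52 and 1.34 in pachytene total RNA. Pachytene libraries were above all others, by a small margin and on 30.6 to 38.7 implied reads each, and the differences were not called (0.46 ± 0.29 from leptotene, limma adjusted p = 0.228, 95% interval -0.19 to 1.10, and 0.29 ± 0.31 from spermatogonia, adjusted p = 0.462). With spike-in scaling the first of these was called (0.98 ± 0.32, adjusted p = 0.0255), while the median of all genes moved from -0.07 to 0.55. Nascent Gapdhs was at 0.262, 0.108 and 0.0826 FPKM in spermatogonia, 1.24 in preleptotene, 1.09, 0.304, 0.24 and 1.29 in leptotene and 0.268, 0.691, 0 and 0.716 in pachytene. It was highest in 2 leptotene libraries and preleptotene, and not called (0.56 ± 0.29 from spermatogonia to leptotene, adjusted p = 0.27, and -0.27 ± 0.29 from leptotene to pachytene, adjusted p = 0.503). The first of these was called in the uncorrected values of the 9 libraries of the 5S-corrected table (0.95, adjusted p = 0.0133). The Gapdhs gene (chromosome 7, 30729775 to 30743681, minus strand) overlaps Tmem147os and Gm26935 on the other strand. Gapdh, the form used by most tissues and not a member of the set, was at 4.59, 18.6 and 21.6 FPKM in spermatogonia and 0.867 to 1.59 in pachytene, and fell by 2.81 ± 0.67 (adjusted p = 0.00749). The Gapdhs over Gapdh log2 ratio went from -2.86 in spermatogonia to 0.23 in pachytene with Gapdhs itself not called. The 8 spermatid markers summed to 76.6 to 84.2 FPKM in pachytene total RNA, with Tnp1 listed at 0, and to 4.81 to 12.4 in spermatogonia.

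Phosphoglycerate mutases act late in glycolysis. Pgam2, the muscle form (chromosome 11, 5801640 to 5803733, minus strand), was at 6.44, 4.29 and 12.1 FPKM in spermatogonia, 6.68 in preleptotene, 7.45, 283, 5.72 and 9.32 in leptotene and 341, 329, 397 and 286 in pachytene total RNA. The 4 pachytene libraries and leptotene library 2 stood far above all other libraries, the highest of which was at 12.1. Pgam2 rose by 4.49 ± 0.76 from leptotene to pachytene (limma adjusted p = 0.00365), by 5.33 ± 0.36 without leptotene library 2 (adjusted p = 5.11e-05) and by 5.21 ± 0.83 from spermatogonia to pachytene (adjusted p = 0.00145). Without leptotene library 1 the first of these was 3.64 and not called (adjusted p = 0.194). Nascent Pgam2 was at 1.73, 1.32 and 3.84 FPKM in spermatogonia, 3.62 in preleptotene, 2.97, 48.8, 1.68 and 2.68 in leptotene and 77.6, 63.8, 65.7 and 75 in pachytene. It rose by 3.78 ± 0.65 from leptotene to pachytene (adjusted p = 0.00205), by 4.39 ± 0.38 without leptotene library 2, and was not called without leptotene library 1 (3.17, adjusted p = 0.0905).

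Pgam1, the form of most tissues (chromosome 19, 41911923 to 41918660, plus strand), went the other way. It was at 42.7, 50.7 and 29.2 FPKM in spermatogonia, 31.4 in preleptotene, 26.2, 10.4, 16.8 and 30.1 in leptotene and 5.67, 5.53, 8.21 and 5.86 in pachytene total RNA. Spermatogonia and leptotene overlapped, and pachytene lay below both. Pgam1 fell by 1.56 ± 0.39 from leptotene to pachytene (limma adjusted p = 0.0135) and by 2.39 ± 0.43 from spermatogonia to pachytene (adjusted p = 0.00212). The first was a fall of -1.77 ± 0.33 (adjusted p = 0.00334) without leptotene library 2. Both calls ended with the replicate block (-1.41 ± 0.73, adjusted p = 0.175, and -2.11 ± 0.89, adjusted p = 0.083), and the first also with spike-in scaling (-0.68 ± 0.56, adjusted p = 0.337) and without leptotene library 1 (-1.35, adjusted p = 0.193). In nascent RNA Pgam1 was at 12.2 to 14.6 FPKM in spermatogonia, 3.21 to 6.9 in leptotene and 1.09 to 2.46 in pachytene. The nascent differences from spermatogonia to leptotene (-1.26 ± 0.39, limma adjusted p = 0.0686) and from leptotene to pachytene (-1.06 ± 0.39, adjusted p = 0.0614) were not called. Without leptotene library 2 the second was called (-1.16, adjusted p = 0.0243) and the first was not (-1.16, adjusted p = 0.0632). Nascent Pgam1 fell by 2.32 ± 0.43 from spermatogonia to pachytene (adjusted p = 0.00166), which was not called with the replicate block (-2.14 ± 1.10, adjusted p = 0.126). Somatic markers fell between the same stages, and their part was not tested. Pgam2 made up 7.8% to 29.3% of the 2 mutases in spermatogonia and 98% to 98.4% in pachytene total RNA.

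**Figure D4:**
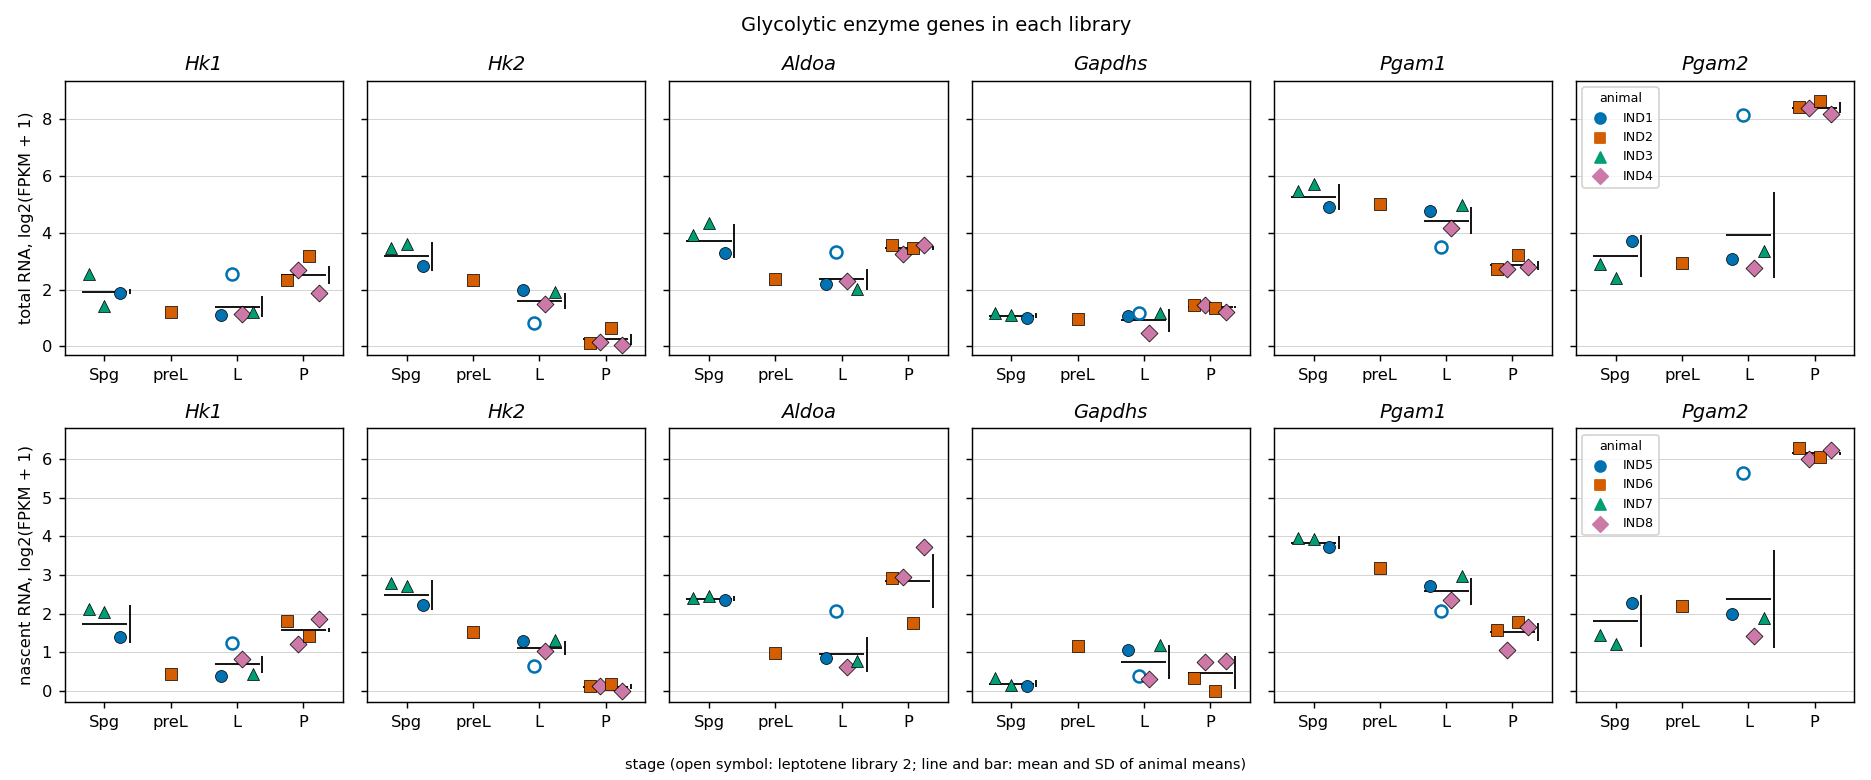
Log2(FPKM + 1) of the hexokinase, aldolase, glyceraldehyde-3-phosphate dehydrogenase and phosphoglycerate mutase genes in each library, by stage (Spg, spermatogonia; preL, preleptotene; L, leptotene; P, pachytene), total RNA above and nascent RNA below; symbols mark animals, open symbols leptotene library 2, and lines and bars the mean and SD of animal means. Pgam2 stands at 286 to 397 FPKM in pachytene total RNA and Hk2 at 0.0355 to 0.58, while Gapdhs stays between 0.375 and 1.76 FPKM in all total RNA libraries.

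The preleptotene library was single, so its values have no replicate check. In total RNA its values were inside the spermatogonia range for Ldha, Ldhc, Pgam1 and Pgam2 and below it for Ldhb, Hk1, Hk2, Aldoa and Gapdhs, and Ldhal6b was listed at 0. Its Hk1, at 24.4% of the 2 hexokinases, was inside the spermatogonia range of 12.9% to 32.8%.

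Total and nascent RNA were compared in 1 fit, which asks whether a gene's total RNA changed differently from its nascent RNA. The fit treated the assays as separate animals, as the labels name them. Yet library by library, animals IND5 to IND8 follow the same order as IND1 to IND4. Whether the assays were matched by sample cannot be told from these labels, and the fit used no such matching. None of the 10 genes was called by limma. Over the 15914 genes tested, 0% were higher and 0% lower from spermatogonia to leptotene, 0.00628% and 0.0189% from leptotene to pachytene, and 0% and 0.0126% from spermatogonia to pachytene. At an unadjusted p under 0.05 there were 0, 2 and 1 of the 10 genes in these comparisons, beside 450, 1076 and 1492 of all genes. Ldha and Ldhb made up the 2 from leptotene to pachytene. For Ldha the total RNA change was lower than the nascent one by -3.30 ± 1.11 (adjusted p = 0.633), and by -3.10 ± 0.72 without leptotene library 2 of both assays (adjusted p = 0.0581). For Ldhb the differences were -0.98 ± 0.45 from leptotene to pachytene (adjusted p = 0.728) and -1.68 ± 0.49 from spermatogonia to pachytene (adjusted p = 0.33). The 95% interval for Ldhc from leptotene to pachytene, -2.54 to 1.52, leaves room for differences of several fold either way.

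The rest of the pathway was taken from 2 lists, 29 other glycolytic enzymes and 22 genes of glucose, lactate and pyruvate handling. These lists too were chosen with earlier results of these data known. Of the 20 other glycolytic enzymes tested in total RNA, 9 rose and 3 fell from leptotene to pachytene, beside 22.4% and 17.9% of all genes, with a median of 0.58 beside -0.07. These counts were 0 and 0 without leptotene library 1, 10 and 4 without leptotene library 2, and 5 and 2 with the animal as a replicate block. The genes named below for changes to or from leptotene were also called without leptotene library 2. Pgk2, the autosomal germ-cell phosphoglycerate kinase, rose by 4.02 ± 0.65 (limma adjusted p = 0.00334). It was at 0.826 to 2.78 FPKM in spermatogonia, at 90.4 in leptotene library 2 and 1.09 to 3.54 in the other leptotene libraries, and at 64.8 to 129 in pachytene. Pgk1, its X-linked counterpart, fell by 1.36 ± 0.31 from spermatogonia to leptotene (adjusted p = 0.0269) and by 2.0 ± 0.34 from spermatogonia to pachytene (adjusted p = 0.00187). The other rises from leptotene to pachytene included the enolases Eno3 (2.92), Eno4 (2.01) and Eno1 (1.64, uncertain because of its near-identical copy Eno1b), triosephosphate isomerase Tpi1 (2.5), the regulator Pfkfb4 (1.93), the phosphofructokinase Pfkm (1.86) and the bisphosphoglycerate mutase Bpgm (1.82). Pyruvate kinase Pkm (-1.73), glucose phosphate isomerase Gpi1 (-1.63) and the aldolase Aldoc (-1.12) fell.

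Of those 20, 0 rose and 3 fell from spermatogonia to leptotene (Pgk1, Pfkfb3 by 1.24 and Pfkl by 0.95), beside 0.286% and 9.58% of all genes. There were 1 such fall without leptotene library 1, 5 without library 2 and 2 with the block. In pachytene against spermatogonia 6 rose and 7 fell, beside 23.1% and 29.8%, and 2 and 6, 9 and 7, and 4 and 4 in the same 3 alternatives. The rises there were Pgk2 (5.00), Eno3 (3.09), Eno4 (2.10), Bpgm (1.90), Pfkm (1.77) and Pfkp (0.92), and the falls Gapdh (-2.81), Gpi1 (-2.36), Pgk1 (-2.0), Pfkfb3 (-1.88), Pkm (-1.76), Aldoc (-1.56) and Pfkl (-1.06). In nascent RNA 17 were tested and 7 rose from leptotene to pachytene: Pgk2 (3.23), Eno4 (2.56), Pfkfb4 (1.91), Eno3 (1.66), Pfkm (1.49), Pfkp (1.25) and Tpi1 (1.06). Pkm fell (-1.70), and the shares of all genes were 15.7% and 15.8%. Without leptotene library 1 there were 1 rise and 0 falls, without library 2 there were 7 and 1, and with the block 5 and 1. Between spermatogonia and leptotene Tpi1 (-1.21) and Pfkfb3 (-0.83) fell in nascent RNA, beside 9.8% of all genes, and these 2 falls became 0, 4 and 2 in those alternatives. From spermatogonia to pachytene Pgk2 (3.85), Eno4 (2.37), Eno3 (1.87), Pfkfb4 (1.75) and Pfkp (0.89) rose there, and Pkm (-3.08), Pgk1 (-1.41) and Pfkfb3 (-1.19) fell, beside 15.6% and 27.9%. Those 5 rises became 3 without leptotene library 1 and with the block.

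Of the 22 handling genes, all tested in total RNA, 9 rose and 7 fell from leptotene to pachytene, beside 22.4% and 17.9% of all genes, with a median of -0.01 beside -0.07. Without leptotene library 1 the counts were 0 and 0, without library 2 they were 10 and 7, and with the animal as a replicate block 5 and 4. The fructose and glucose carriers Slc2a5 (4.30) and Slc2a3 (3.12) rose, and the widely used glucose carrier Slc2a1 fell (-1.61). Among monocarboxylate carriers, which move lactate and pyruvate, Slc16a7 rose (2.70), Slc16a3 rose (0.86, the smallest of the rises) and Slc16a1 fell (-2.63). Pdha2, the autosomal germ-cell subunit of pyruvate dehydrogenase, rose by 3.53 ± 0.56 from a leptotene mean of 32.4 to a pachytene mean of 184 FPKM, while its X-linked counterpart Pdha1 fell (-1.78) to a mean of 0.109. Subunits Dlat (2.43), Pdhb (1.33) and Dld (0.95) and the kinase Pdk2 (2.27) rose. The kinases Pdk3 (-3.15) and Pdk1 (-1.14), the phosphatase Pdp2 (-1.23) and the pyruvate carrier Mpc1 (-1.29) fell. Slc2a3 also differed between pachytene libraries of 1 animal, at 11.5 FPKM in library 2 and 614 in library 4 of animal IND4.

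In leptotene against spermatogonia 0 of the 22 rose and 2 fell in total RNA, Pdk4 (-1.96) and Emb (-1.04), beside 0.286% and 9.58% of all genes; without leptotene library 2 there were 1 and 4. From spermatogonia to pachytene 7 rose and 9 fell, beside 23.1% and 29.8%, with 3 and 9 without leptotene library 1 and 5 and 6 with the block. The rises were Slc2a5 (5.16), Pdha2 (4.25), Slc2a3 (3.69), Dlat (2.59), Slc16a7 (2.51), Pdk2 (1.60) and Mpc2 (1.23), with Pdp1 (-3.60), Pdk3 (-3.08), Pdha1 (-3.07), Slc16a1 (-2.80), Slc2a1 (-2.18), Pdk4 (-2.10), Pdk1 (-2.09) and Pdp2 (-1.70) leading the falls. Of 21 tested in nascent RNA, 5 rose and 7 fell from leptotene to pachytene, beside 15.7% and 15.8%, and these became 1 and 2 without leptotene library 1, 5 and 8 without library 2, and 4 and 2 with the block. The changes were led by Slc2a3 (4.29) and Slc2a5 (3.87) and by Pdp1 (-2.99) and Slc16a1 (-2.68). Pdha2 (3.13), Slc16a7 (2.57) and Pdk2 (1.36) also rose, and Pdk3 (-2.41), Slc2a1 (-1.52), Mpc1 (-1.45), Pdha1 (-1.41) and Pdp2 (-1.11) also fell. From spermatogonia to leptotene 0 of the 21 rose and 3 fell, beside 0.788% and 9.8%, and to pachytene 4 rose and 8 fell, beside 15.6% and 27.9%, with 3 falls in place of 8 with the block. Among these falls was Pdha1, by 1.60 to leptotene and by 3.01 to pachytene.

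Genes with the profile most like Ldhc over the 12 total RNA libraries, by Pearson r of log2(FPKM + 1) among 7535 genes, were Clgn (0.945), Med9os (0.941), Wdr78 (0.94), Pomt1 (0.94) and Lin7a (0.939). For Ldha they were Ubxn10 (0.926), Zpbp2 (0.884), Tmem202 (0.883), Rbakdn (0.873) and Zfp41 (0.868). Within the set, Ldhc was nearest to Pgam2 (r = 0.873), Hk1 (0.817) and Ldhal6b (0.79), and Ldha nearest to Pgam2 (0.515). Between the neighbours Ldha and Ldhc r was 0.254. These are descriptions over 12 libraries that share stages and animals.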

How the data were processed

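Total and nascent RNA were sequenced from sorted germ cells in 12 libraries each. Per the labels' protocols, ERCC spike-ins were added after RNA extraction, rRNA was depleted from total RNA and not from nascent RNA, and libraries were made with a directional kit. STAR 2.5.2a, StringTie and mm10 are named in the submitters' processing notes, and the annotation and strand setting are not given in the sources used here. The authors deposited FPKM per gene for both assays, and a 5S-corrected nascent signal for 9 libraries, which the values show to be the deposited FPKM times 1 constant per library (0.441 to 5.08). FPKM limit the depth to what the lowest steps imply, 7070000 to 15800000 reads in total RNA and 5070000 to 10100000 reads in nascent RNA.

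Libraries of 1 animal and stage were averaged as log2(FPKM + 1), since they share their source. Genes reaching 1 FPKM in 2 or more libraries were tested with limma 3.58.1 in R 4.3.3 (moderated test with a trend, Benjamini-Hochberg adjustment over all genes tested, threshold 0.05), between spermatogonia, leptotene and pachytene and for the difference between assays. Isozyme ratios were compared by exact two-sided permutation tests over animals. The fit was checked on simulated data. All 10 genes are named. Of the other lists, Gapdh, Pgk1 and Pgk2 were always named, and otherwise at most 8 called genes per list and direction, largest first. A few others (Eno1b, Aldoart1, Slc16a3 and the overlapping genes) were named after their values were seen. The members and lists were chosen with earlier results of these data known.

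Labels tie libraries to animals, so same-animal stages are pairs. Deviations from stage means correlated at 0.08, 0.02 and 0.08 for IND1, IND3 and IND4 and at -0.16, -0.12 and 0.06 for IND5, IND7 and IND8. Alternatives covered the pseudocount, the filter, 4 scalings, the animal as a block, single libraries with a correlation within animals, and leaving out each library. Gene positions are from GENCODE M21 and promoter windows from RefSeq on GRCm38.p6.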

Additional observations from a re-analysis of the deposited data

Results flagged for a closer look

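In 13 of 40 groups of 4 libraries (10 genes, leptotene and pachytene, both assays), 1 library lay farther from the other 3 than Dixon's critical value for 4 values at the 95% level allows. For independent normal values that happens in about 1 in 20 groups. The values here were FPKM without logs and the 40 groups share libraries, so that rate does not carry over to them. Leptotene library 2 was that library 11 times, each time the highest. In total RNA it held Ldha at 184 FPKM (others 3.99 to 6.25), Ldhc at 93.3 (6.86 to 20.3), Ldhal6b at 174 (2.42 to 9.8), Hk1 at 4.8 (1.16 to 1.31), Aldoa at 8.97 (3.04 to 3.9) and Pgam2 at 283 (5.72 to 9.32). In nascent RNA it held Ldha at 18.3 FPKM (others 0.226 to 0.246), Ldhc at 59.1 (0.459 to 0.52), Ldhal6b at 63.3 (0 to 1.32), Aldoa at 3.23 (0.524 to 0.79) and Pgam2 at 48.8 (1.68 to 2.97). The pachytene markers of these libraries, 2180 FPKM in total and 489 in nascent RNA, were also above those of the other leptotene libraries (97.5 to 137 and 44.1 to 111). Their part in these values was not tested.

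Pachytene library 3 of total RNA was the highest of its stage for Hk2, at 0.58 FPKM (others 0.0355 to 0.119), and for Pgam1, at 8.21 (5.53 to 5.86). Its spermatogonia markers were also the highest of the stage, at 20.4 FPKM (others 2.13 to 4.62), and their part in these values was not tested.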

How the results depend on the processing

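Of 2250 tested values of the 10 genes under alternatives, 576 were called as in the reported fit, 74 calls were lost and 45 gained, with the sign turned in 0 of these, and 1555 were called in neither, 103 of them with the sign turned. From spermatogonia to leptotene in total RNA, the 2 falls became 1 with a pseudocount of 0.1, 1 to 3 leaving out a library, and 4 when rescaled to a common total without spike-ins and without leptotene library 2, an alternative added after seeing the data. From leptotene to pachytene in total RNA, the 5 rises became 0 to 5 leaving out a library, and the 3 falls became 1 with a pseudocount of 5, 1 with spike-in scaling and 0 to 3 leaving out a library. With the animal as a replicate block those 3 falls became 0, and the 1 nascent fall became 0. That fit has few residual degrees of freedom, and its differences between pachytene and either earlier stage rest on 1 pachytene animal per assay. Beside the calls given with each gene the block changed no other call. From spermatogonia to leptotene in nascent RNA, the 2 falls became 1 with a pseudocount of 0.1, 0 with spike-in scaling, 1 with quantile normalization, 4 with single libraries, 5 in the 5S-corrected table, 6 in its 9 libraries uncorrected (where the 0 rises became 1) and 2 to 5 leaving out a library. In nascent RNA from leptotene to pachytene, the 5 rises became 0 with spike-in scaling and 0 to 6 leaving out a library. The 1 fall became 2 with a pseudocount of 0.1, with single libraries and in the 9 libraries uncorrected, 0 with a pseudocount of 5, no filter, spike-in scaling, quantile normalization and the 5S-corrected table, and 0 to 2 leaving out a library. From spermatogonia to pachytene in nascent RNA, the 4 rises and 3 falls became 0 and 0 with spike-in scaling, which called 0 of all nascent genes. Between assays, 0 lower became 1 with a pseudocount of 5 from spermatogonia to pachytene. The causes were not tested.

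Calls over all genes ranged, for the same 3 comparisons in order (spermatogonia to leptotene, leptotene to pachytene, spermatogonia to pachytene), from 1052 to 3396, 9 to 10902 and 5919 to 13005 in total RNA (1895, 7742 and 10151 as reported), from 0 to 5867, 0 to 8355 and 0 to 8870 in nascent RNA (1734, 5161 and 7124) and from 0 to 433, 0 to 233 and 0 to 892 between assays (0, 4 and 2). The median log2 change of all genes from leptotene to pachytene moved from -0.07 to 0.55 in total RNA with spike-in scaling, and from -0.27 to -1.13 with spike-in scaling and 0.75 in the 5S-corrected table in nascent RNA. Depth limits Ldhb and Hk2 in pachytene and Gapdhs throughout, with 0 to 8.76, 3.01 to 54.7 and 7.85 to 38.7 implied reads in total RNA.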
